A study of Mus musculus with 70 samples.

Results

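Knockout mice that lack functional pendrin and had inhaled crystalline silica were compared with knockout mice that had breathed air, with lungs taken 3 months after the exposure. The comparison held 12 of the 70 lung libraries of the study, chosen by their labels: 6 lungs of silica-exposed knockout mice (KO silica) and 6 lungs of air-exposed knockout mice (KO air). All 12 animals were males with both copies of Slc26a4 disrupted in the germline (Pds-/-), bred from heterozygous parents of the line 129S-Slc26a4tm1Erg/AjgJ. Because the disruption was present in every cell from conception, effects of lung pendrin and of its loss in the inner ear, kidney or thyroid cannot be told apart in these animals. At about 3 months of age the silica mice spent 6 hours a day for 4 days in a whole-body chamber with Min-U-Sil5, a fine crystalline silica dust, at 15 mg/m3. The air mice were exposed to air instead. Wildtype mice (Pds+/+) exposed in the same 2 ways, 6 per group at 3 months, and knockout mice taken 1 day or 9 months after exposure, 6 per group, were used where the response was set against another genotype or time.

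Crystalline silica particles that reach the alveoli are taken up by macrophages, damage the lysosomes that hold them and cannot be digested, so that the lung stays inflamed long after the dust is gone from the air. Pendrin is an anion exchanger of airway epithelium that carries chloride, bicarbonate and thiocyanate, and its gene is switched on in inflamed airways. In silicosis, neutrophils, monocytes and lymphocytes gather around the particles, and scar tissue may follow.

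RNA came from a piece of whole lung, so a change in the number of cells of a type and a change in RNA per cell cannot be told apart. Values are normalised CPM, in which each library is scaled to the same size by the trimmed mean of M values (TMM). Lung markers were abundant in all 12 libraries: surfactant gene Sftpc reached 4248 to 4903 CPM in KO silica lungs, against 4244 to 5396 CPM in KO air lungs, club cell Scgb1a1 3901 to 9619.9 CPM in KO silica lungs, against 9694 to 11142 CPM in KO air lungs, alveolar type 1 cell Ager 842 to 1317 CPM in KO silica lungs, against 1143 to 1566 CPM in KO air lungs, endothelial Cldn5 134 to 223 CPM in KO silica lungs, against 185 to 225 CPM in KO air lungs and ciliated cell Foxj1 28.7 to 73.9 CPM in KO silica lungs, against 37.7 to 71.2 CPM in KO air lungs. The targeted gene was low but not absent, and rose with silica. Slc26a4 stood at 3.38, 13.9 and 36.4 CPM in KO silica lungs, against 1.06, 2.16 and 3.08 CPM in KO air lungs (lowest, median and highest of 6 mice, as in all such triplets below), a log2 fold change of 2.66 with a standard error of 0.40 (adjusted p = 4.47e-05). Its 6 silica values lay above its 6 air values. Wildtype lungs of the same time held 43.0, 55.1 and 73.8 CPM in WT silica lungs, against 9.08, 11.5 and 15.0 CPM in WT air lungs, so every knockout lung lay below every wildtype lung of the same exposure. A gene-level count does not say which exons the reads came from, and the gene, on chromosome 12 at 31519814 to 31560055 of GRCm38, is broken, not removed as a whole.

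The 12 libraries held 868097 to 2533912 counts, and KO silica mouse 2 was the shallowest. KO silica mouse 3 stood apart from the other 11 knockout mice of its time. Replicates are numbered in accession order and the numbers pair nothing. The chi-square statistic per degree of freedom between 2 libraries, which is about 1 where they differ by sampling noise alone, was 5.64 to 8.64 between mouse 3 and the other 5 silica mice, 1.59 to 3.05 among those 5, and 1.56 to 2.54 among the air mice. In mouse 3, 73 genes lay at least 2-fold above the highest of the other 11 mice and 95 at least 2-fold below the lowest. For the other 11 mice those counts ran to 6 genes above and 48 below, both in mouse 2. Results that rest on mouse 3 are therefore given with and without it. Many reads were assigned to Lars2, the gene of mitochondrial leucyl-tRNA synthetase. They took 5.60% to 9.52% of all counts in KO silica lungs and 8.16% to 9.77% in KO air lungs. The log2 fold change of Lars2 was -0.45 ± 0.10, adjusted p = 0.00582. Gene counts do not show where these reads came from, and the part of Lars2 in other results was not tested.

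**Figure D1:**
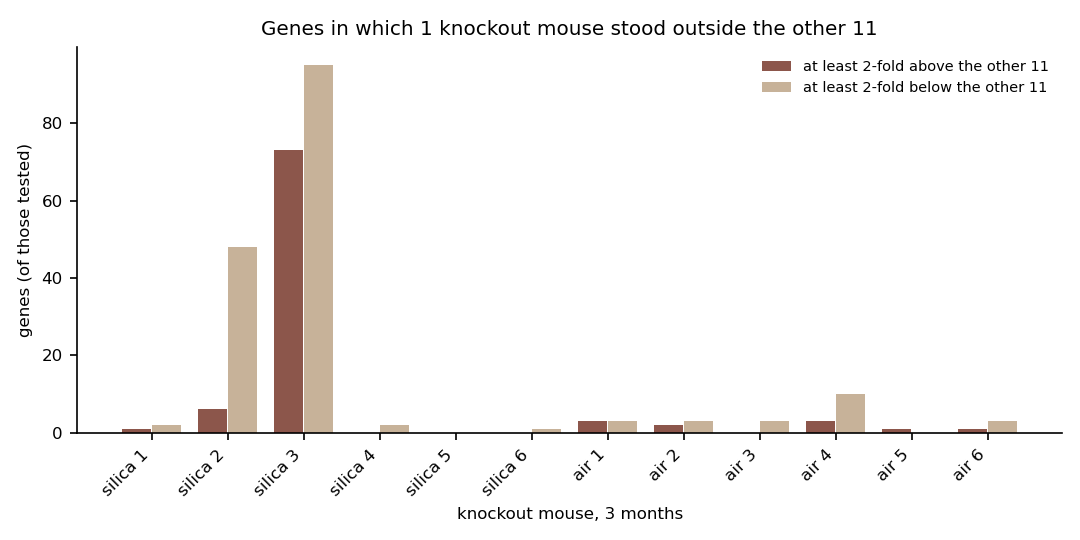
Number of genes, of 12647 tested, in which 1 knockout mouse of 3 months lay at least 2-fold above the highest (dark bars) or at least 2-fold below the lowest (light bars) of the other 11, with the 6 silica mice on the left and the 6 air mice on the right. Silica mouse 3 has 73 genes above and 95 below, and silica mouse 2, the library with the fewest counts, has 6 and 48.

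Silica left a broad inflammatory pattern in knockout lungs at 3 months. In the fit of the 24 libraries of 3 months, most tested acute phase, CC chemokine, dendritic cell, complement and NF-kappa-B genes were higher. In the same fit, 6 of 16 alveolar type 1 cell genes and 6 of 18 xenobiotic enzymes were lower. Of 12647 tested genes, 607 passed an adjusted p of 0.05 in edgeR (4.8%), with 382 higher (3.02%) and 225 lower (1.78%). A change of at least 2-fold was seen in 112 of the higher and 11 of the lower genes. In 184 genes all 6 silica mice lay above all 6 air mice (1.45%), and in 102 all 6 lay below (0.807%). Without mouse 3 the calls were 288 higher (2.27%) and 184 lower (1.45%) of 12695 tested genes, and 405 of the 607 genes were called again. Fits that estimated the spread from other libraries called fewer genes: 319 (223 higher, 96 lower) with the 12 compared libraries alone and 306 (214 higher, 92 lower) with all 70. With all 70, 6 of 12 acute phase, 5 of 8 CC chemokine and 9 of 13 dendritic cell genes were called higher. Complement and NF-kappa-B genes each had 9 of 18 there, lipid-laden macrophage genes 6 of 14 and monocyte and interstitial macrophage markers 4 of 13. In the fit of all 70, called members numbered 4 in place of 11 for pattern recognition receptors, 3 in place of 9 for lysosome genes, 2 in place of 6 for xenobiotic enzymes, 2 in place of 4 for colony-stimulating factors and for osteoclast-type genes and 3 in place of 5 for iron and metal genes. Resident alveolar macrophage markers had 1 higher and 1 lower there, in place of 5 and 2, and alveolar type 2 genes 1 higher and 0 lower, in place of 3 and 1. The count was 1 in place of 3 for interleukin 1 family genes and for alternative macrophage genes, 1 in place of 2 for B cell genes, and 0 in place of 2 for class I and for interferon-stimulated genes. Of 155 called genes examined for it, 110 kept their call when each of the 12 mice was left out in turn and 45 lost it at least once. The median log2 fold change of all tested genes was 0.00, which is the level each list median below is to be read against. Genes in any of the 48 lists made up 528 of the 12647 tested genes, 128 of the 382 increases and 17 of the 225 decreases.

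**Figure D2:**
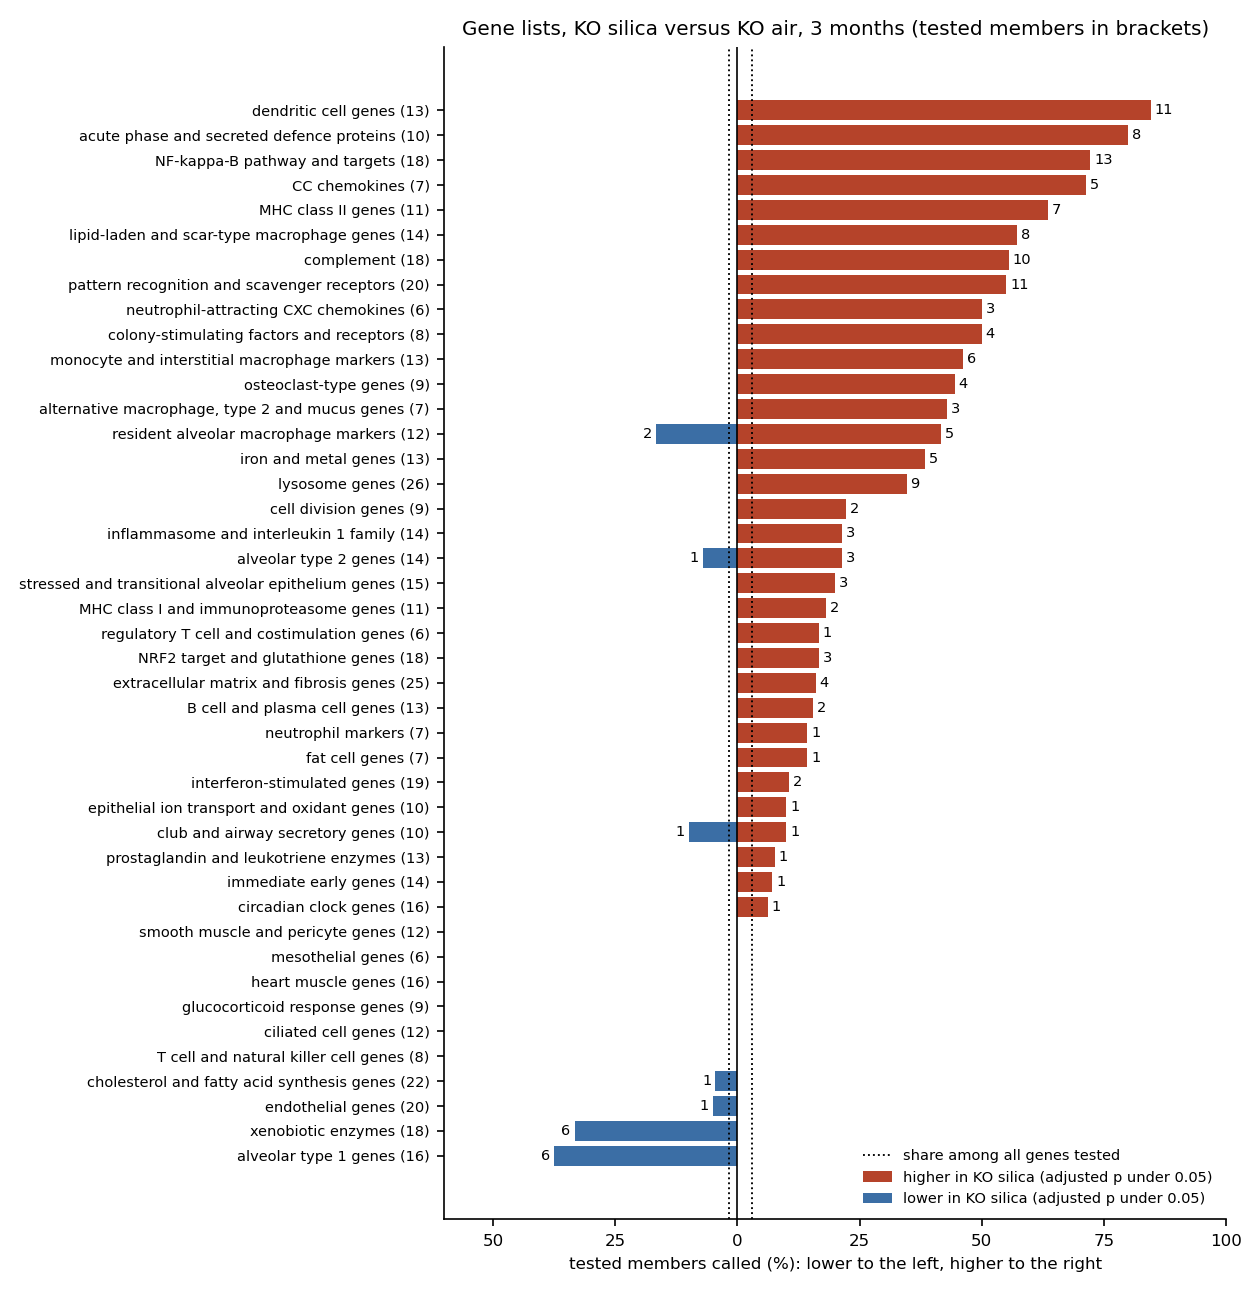
Share of the tested members of each gene list that was called higher (right) or lower (left) in KO silica than in KO air lungs, in percent, with the number called beside each bar and the number tested in brackets. Dotted lines mark the shares among all tested genes, 3.02% higher and 1.78% lower, and the dendritic cell, acute phase and NF-kappa-B lists have the largest shares to the right.

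Among the genes that rose are known targets of the transcription factor NF-kappa-B. The promoters of 5 genes that rose and hold a loose pattern of its site are shown as DNA context. They were chosen after values and matches were seen, and only Cxcl1 and Cxcl3 are among the 20 largest increases. They run from 250 bases before to 50 bases after the annotated start, 5′ to 3′ on the gene's strand, from RefSeq on GRCm38.p6. Capitals mark the letters GGGNNTTTCC on either strand, a loose pattern of the NF-kappa-B site in which N is any base. The usual site has A or G directly after GGG. Cxcl1 (chr5:90890995-90891294, plus strand) and Cxcl3 (chr5:90785851-90786150, plus strand) encode neutrophil chemoattractants, and Nfkbia (chr12:55492598-55492897, minus strand) and Tnfaip3 (chr10:19015361-19015660, minus strand) encode inhibitors of NF-kappa-B. Marco (chr1:120504975-120505274, minus strand) encodes a macrophage scavenger receptor that binds silica.
Cxcl1: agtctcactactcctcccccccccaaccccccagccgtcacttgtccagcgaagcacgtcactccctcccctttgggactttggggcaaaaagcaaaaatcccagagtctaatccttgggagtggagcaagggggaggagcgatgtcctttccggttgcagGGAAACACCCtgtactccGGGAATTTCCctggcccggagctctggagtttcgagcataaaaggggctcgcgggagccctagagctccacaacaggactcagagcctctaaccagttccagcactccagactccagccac
Cxcl3: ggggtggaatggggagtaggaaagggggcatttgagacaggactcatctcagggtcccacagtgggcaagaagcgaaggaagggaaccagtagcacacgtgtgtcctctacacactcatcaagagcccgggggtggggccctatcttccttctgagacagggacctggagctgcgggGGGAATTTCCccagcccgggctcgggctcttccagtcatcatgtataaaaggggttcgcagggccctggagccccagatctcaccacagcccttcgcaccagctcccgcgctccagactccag
Nfkbia: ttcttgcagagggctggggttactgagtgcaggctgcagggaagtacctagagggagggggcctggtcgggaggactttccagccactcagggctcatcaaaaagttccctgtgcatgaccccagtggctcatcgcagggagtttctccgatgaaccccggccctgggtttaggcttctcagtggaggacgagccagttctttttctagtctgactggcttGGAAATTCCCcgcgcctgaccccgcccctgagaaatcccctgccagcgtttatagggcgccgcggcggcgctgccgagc
Tnfaip3: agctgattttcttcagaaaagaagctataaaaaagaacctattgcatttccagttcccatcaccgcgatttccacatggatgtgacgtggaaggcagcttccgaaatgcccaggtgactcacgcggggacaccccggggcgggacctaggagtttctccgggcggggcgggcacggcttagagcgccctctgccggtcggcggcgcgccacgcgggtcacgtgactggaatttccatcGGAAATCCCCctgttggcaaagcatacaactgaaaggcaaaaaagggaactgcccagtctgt
Marco: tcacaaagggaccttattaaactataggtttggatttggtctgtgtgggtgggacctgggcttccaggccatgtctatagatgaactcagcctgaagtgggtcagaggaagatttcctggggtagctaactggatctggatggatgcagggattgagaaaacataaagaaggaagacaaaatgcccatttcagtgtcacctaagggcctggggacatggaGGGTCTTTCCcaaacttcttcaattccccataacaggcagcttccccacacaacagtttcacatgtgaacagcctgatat
The Cxcl1 window holds a pair of such matches, at bases -89 and -71 from the start, and the Cxcl3 window holds 1 at base -73. In Nfkbia, Tnfaip3 and Marco the match begins at bases -29, -12 and -30. The Cxcl1 match at base -89, read on its own strand, and the Marco match have T after GGG and so depart from the usual site. The 10 letters occur in 535 of the 32851 promoters in the table (1.63%). By gene, at least 1 promoter held them for 23 of the 294 matched genes that were higher in KO silica lungs (7.82%), for 1 of the 158 matched genes that were lower (0.633%) and for 191 of the 9587 matched genes tested (1.99%). No test was made of these shares, and a match of letters does not show binding.

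The acute phase and secreted defence genes, products that epithelium and macrophages release in inflammation, were among the clearest. Of 16 listed members 10 passed the low-count filter and were tested. Of these, 8 were higher and 0 lower (8 also without mouse 3), with a median log2 fold change of 1.03. Lcn2, the iron-scavenging lipocalin of antibacterial defence, stood at 167, 344 and 388 CPM in KO silica lungs, against 38.9, 49.4 and 58.9 CPM in KO air lungs. The lowest silica lung, mouse 3, held almost 3 times the highest air lung, and the log2 fold change was 2.70 (standard error 0.15, adjusted p = 2.44e-14). Chil1, a chitinase-like protein of macrophages and epithelium, stood at 281, 474 and 557 CPM in KO silica lungs, against 55.3, 67.8 and 76.9 CPM in KO air lungs. Its groups were as far apart, by 2.74 (standard error 0.14, adjusted p = 4.64e-15). Saa3, an acute phase apolipoprotein made in the lung, was near the floor in air and measured 18.6, 23.5 and 41.1 CPM in KO silica lungs, against 0.515, 0.818 and 1.32 CPM in KO air lungs. It had 1 of the largest increases of all genes, 4.74 ± 0.50, adjusted p = 7.91e-08.

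Smaller increases came from the protease inhibitors Serpina3g (1.53 ± 0.23, adjusted p = 5.77e-05) and Serpina3n (0.48 ± 0.10, adjusted p = 0.00188), the peptidoglycan-binding Pglyrp1 (1.31 ± 0.30, adjusted p = 0.00735) and the copper oxidase Cp (0.44 ± 0.08, adjusted p = 0.000591). Serpina3n reached 172 to 283 CPM in KO silica lungs, against 148 to 167 CPM in KO air lungs, without overlap. Lrg1, a glycoprotein of vessels and neutrophils, passed only with mouse 3 in the comparison (0.75 ± 0.22, adjusted p = 0.0393, against adjusted p = 0.18 without it), and mice 2 and 3 at 71.6 and 71.0 CPM were far above the other 4 silica lungs. The lipopolysaccharide-binding protein Lbp did not pass (0.34 ± 0.11, adjusted p = 0.0645). Pigr, which carries immunoglobulin A across epithelium, rose alongside these genes, with 45.6, 165 and 209 CPM in KO silica lungs, against 20.1, 31.9 and 38.1 CPM in KO air lungs and a log2 fold change of 2.20 ± 0.23, adjusted p = 9.5e-08. All 6 silica lungs exceeded all air lungs in Pigr, with mouse 3 the lowest of the 6. The call for Lrg1 was lost in 7 of the 12 fits that left out 1 mouse.

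Of 6 tested CXC chemokines that draw neutrophils 3 rose and 0 fell, and these 3, Cxcl1, Cxcl3 and Cxcl5, were near the floor in air. The summed level of the list, 965 to 1142 CPM in KO silica lungs, against 930 to 1216 CPM in KO air lungs, overlapped. Cxcl5, made by alveolar epithelium, measured 2.53, 14.6 and 32.4 CPM in KO silica lungs, against 0, 0.613 and 1.76 CPM in KO air lungs, a log2 fold change of 4.15 ± 0.66, adjusted p = 0.000106. Cxcl1, whose promoter is printed above, measured 5.07, 9.86 and 12.9 CPM in KO silica lungs, against 0.694, 1.22 and 3.08 CPM in KO air lungs, a log2 fold change of 2.61 ± 0.30, adjusted p = 6.38e-07. In both genes the groups did not overlap and mouse 3 was the lowest silica lung. Cxcl3 was counted 106 times in the 6 silica lungs together and 3 times in the 6 air lungs, a ratio of 33.4 with an exact 95% counting interval of 11.1 to 164 (fitted log2 fold change 4.80 ± 0.70, adjusted p = 2.99e-05). Mouse 3 held a single Cxcl3 count, 0.422 CPM, within the range of the air lungs, and the other 5 silica lungs held 7.72 to 12.3 CPM. Cxcl15, a constitutive chemokine of lung epithelium, did not pass (-0.15 ± 0.07, adjusted p = 0.244).

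Of 7 tested neutrophil markers only Cxcr2, the receptor for these chemokines, passed, with 12.6, 17.4 and 39.1 CPM in KO silica lungs, against 8.25, 9.35 and 13.2 CPM in KO air lungs and a log2 fold change of 1.04 ± 0.28, adjusted p = 0.0237. The granule proteins S100a8 and S100a9, abundant in neutrophils, did not pass (0.78 ± 0.33, adjusted p = 0.196 and 0.63 ± 0.34, adjusted p = 0.347). In S100a9 mice 2 and 6 reached 81.0 and 77.7 CPM while the other 4 silica lungs, at 15.4 to 26.2 CPM, lay within the air range of 14.5 to 31.2 CPM. Outside that list, Cxcr1, the second receptor of these chemokines (2.52 ± 0.50, adjusted p = 0.00172), and Cd177, a neutrophil surface protein that epithelium can also make, rose. Cd177 measured 25.8, 36.3 and 50.8 CPM in KO silica lungs, against 2.77, 6.70 and 10.6 CPM in KO air lungs, a log2 fold change of 2.50 ± 0.29, adjusted p = 6.38e-07, with every silica lung above every air lung. Cxcr2 lost its call without silica mouse 6, air mouse 2 or air mouse 3 (adjusted p up to 0.109).

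The CC chemokines, which draw monocytes, T cells and dendritic cells, rose in 5 of 7 tested members, with a median of 1.77. The list holds 16 members, and the low-count filter set the rest aside. A member near the floor in air can pass that filter through its silica lungs, whereas a low member that did not rise is dropped. Ccl22, the dendritic cell and macrophage ligand of the receptor Ccr4, measured 5.07, 16.0 and 19.5 CPM in KO silica lungs, against 0.419, 1.01 and 2.66 CPM in KO air lungs (3.55 ± 0.37, adjusted p = 5.81e-08). Ccl17, the other Ccr4 ligand, measured 0.845, 7.97 and 9.34 CPM in KO silica lungs, against 0, 0.493 and 1.06 CPM in KO air lungs (3.64 ± 0.53, adjusted p = 2.54e-05). In Ccl17 mouse 3, at 0.845 CPM, fell among the air lungs and the other 5 silica lungs held at least 6.88 CPM, whereas in Ccl22 the groups did not overlap. Ccl6, made by macrophages and present in air, measured 255, 269 and 412 CPM in KO silica lungs, against 75.3, 85.7 and 96.7 CPM in KO air lungs (1.77 ± 0.10, adjusted p = 1.31e-13). Ccl9 (1.19 ± 0.17, adjusted p = 1.98e-05) and the monocyte chemoattractant Ccl3 (2.52 ± 0.41, adjusted p = 0.000144) rose with no overlap between the groups.

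Growth factors of macrophages rose less. Csf1, the survival factor of macrophages, measured 72.8, 77.2 and 94.9 CPM in KO silica lungs, against 47.2, 59.5 and 71.6 CPM in KO air lungs (0.42 ± 0.10, adjusted p = 0.0117), and all 6 silica lungs lay above all air lungs. Csf2, which alveolar macrophages need to mature, rose by 1.42 ± 0.39, adjusted p = 0.03, but its groups overlapped at 2.11 to 13.8 CPM in KO silica lungs, against 0.471 to 5.31 CPM in KO air lungs and it lost its call in 7 of the 12 fits that left out 1 mouse (adjusted p up to 0.0932). The shared beta chain of the Csf2 receptor, Csf2rb, measured 73.8, 87.0 and 123 CPM in KO silica lungs, against 31.9, 44.8 and 52.6 CPM in KO air lungs (1.07 ± 0.13, adjusted p = 7.59e-07), and its close relative Csf2rb2 rose as well (0.86 ± 0.21, adjusted p = 0.0127). Of 8 tested members of this list 4 rose and 0 fell.

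Many genes of activated, particle-handling macrophages rose, while identity genes of resident alveolar macrophages moved in both directions, with 5 of 12 tested members higher and 2 lower. Of 14 tested genes of lipid-laden and scar-type macrophages 8 rose and 0 fell, and 6 rose without mouse 3. Mmp12, the macrophage elastase, measured 24.8, 35.8 and 186 CPM in KO silica lungs, against 1.26, 2.61 and 5.55 CPM in KO air lungs (4.43 ± 0.51, adjusted p = 4.63e-07). Every silica lung was above every air lung, mouse 3 at 186 CPM stood far above the other 5 (24.8 to 47.0 CPM), and the log2 fold change without it was 3.62 (adjusted p = 2.46e-12). Spp1, the matrix protein osteopontin, measured 87.8, 124 and 191 CPM in KO silica lungs, against 26.3, 32.9 and 52.8 CPM in KO air lungs (1.83 ± 0.18, adjusted p = 3.45e-08). Gpnmb, a lysosomal glycoprotein of lipid-loaded macrophages, measured 77.2, 93.5 and 267 CPM in KO silica lungs, against 26.3, 34.8 and 38.2 CPM in KO air lungs (1.82 ± 0.23, adjusted p = 2.54e-06), with mouse 3 again the highest. Neither overlapped between the groups. The galectin Lgals3 (0.91 ± 0.16, adjusted p = 0.000542), the lysosomal protease Ctsd (0.81 ± 0.15, adjusted p = 0.000699) and the fatty acid carrier Fabp5 (0.69 ± 0.14, adjusted p = 0.00255) rose with and without mouse 3. Lipoprotein lipase Lpl (0.61 ± 0.17) and the tetraspanin Cd63 (0.49 ± 0.13) lost their calls without mouse 3, with adjusted p of 0.0762 and 0.0698, and Lpl also without silica mouse 6, air mouse 2 or air mouse 3. Trem2, a lipid-sensing receptor, did not pass (0.90 ± 0.40, adjusted p = 0.23).

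Genes otherwise known from bone-resorbing osteoclasts had a median log2 fold change of 0.28, and Ctsk was the clearest of them. Ctsk, the collagen-degrading cathepsin, measured 51.0, 74.5 and 106 CPM in KO silica lungs, against 10.4, 12.3 and 14.9 CPM in KO air lungs, a log2 fold change of 2.66 ± 0.16, adjusted p = 1.31e-13. The lowest silica lung held more than 3 times the highest air lung. Atp6v0d2, a subunit of the lysosomal proton pump, rose without overlap (65.8 to 144 CPM in KO silica lungs, against 40.0 to 51.0 CPM in KO air lungs, 0.94 ± 0.15, adjusted p = 0.000107). The tartrate-resistant phosphatase Acp5 (0.83 ± 0.19, adjusted p = 0.00805) and Tnfrsf11a, the receptor for the osteoclast factor RANKL (0.57 ± 0.14, adjusted p = 0.0129), also rose, making 4 of 9 tested members with 0 lower. Mmp9, Nfatc1 and Itgb3 of the same list did not pass.

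Resident alveolar macrophage markers moved in both directions: 5 of 12 tested members rose and 2 fell (4 and 2 without mouse 3), with a median of 0.37. Siglecf, the lectin that marks alveolar macrophages in mice, fell to 2.86, 5.80 and 8.22 CPM in KO silica lungs, against 7.03, 11.4 and 14.7 CPM in KO air lungs (-1.10 ± 0.24, adjusted p = 0.00484). In 5 silica lungs the level lay below that of all air lungs, and in mouse 2, the shallowest library, it did not. Fabp1, a fatty acid carrier, also fell (-1.03 ± 0.29, adjusted p = 0.0313), with silica mouse 5 at 11.5 CPM amid the air values, and it did not pass without mouse 3 (adjusted p = 0.0658) or in 5 of the other 11 fits that left out 1 mouse. The ribonuclease Ear1 was lower without passing (-0.77 ± 0.24, adjusted p = 0.0549). Marco, in contrast, measured 79.9, 93.6 and 114 CPM in KO silica lungs, against 15.4, 24.0 and 33.5 CPM in KO air lungs, a log2 fold change of 1.99 ± 0.16, adjusted p = 2.01e-10. Its lowest silica lung was more than 2-fold above its highest air lung. The integrin Itgax (0.81 ± 0.16, adjusted p = 0.00235), the surface protein Plet1 (0.57 ± 0.13, adjusted p = 0.0055) and the chitinase-like Chil3 (0.78 ± 0.19, adjusted p = 0.0103) rose, and Chil3 in mouse 3 reached 1409 CPM against 394 to 701 CPM in the other 5. Retnla, a secreted product of type 2 inflammation, rose by 0.86 ± 0.24, adjusted p = 0.0294 although mouse 3, at 17.7 CPM, lay far below the other 5 silica lungs (62.9 to 85.7 CPM), so that with Chil1 and Chil3 it made 3 of 7 tested genes of alternative macrophage activation, but lost its call in 7 of the 12 fits that left out 1 mouse. Krt79, a keratin expressed by mouse alveolar macrophages (0.58 ± 0.17), lost its call without mouse 3 (adjusted p = 0.189) and in 6 of the other 11 such fits.

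Markers of monocytes and interstitial macrophages rose in 6 of 13 tested members with 0 lower. The 3 chains of complement C1q, products of tissue macrophages, rose together. C1qa measured 21.8, 26.2 and 50.3 CPM in KO silica lungs, against 10.3, 11.8 and 14.9 CPM in KO air lungs (1.32 ± 0.19, adjusted p = 2.05e-05), and C1qb (1.31 ± 0.22, adjusted p = 0.000171) and C1qc (1.38 ± 0.24, adjusted p = 0.000443) likewise did not overlap. The monocyte chemokine receptor Ccr2 (0.50 ± 0.15, adjusted p = 0.0458) and the lipid carrier Apoe (0.35 ± 0.09, adjusted p = 0.0133) rose slightly, and Ccr2 lost its call in 8 of the 12 fits that left out 1 mouse (adjusted p up to 0.119). The pan-macrophage lysosomal protein Cd68 (0.66 ± 0.19, adjusted p = 0.0346) did not pass without mouse 3 (adjusted p = 0.157) or in 5 of the other 11 fits, and Adgre1, Csf1r and Cx3cr1, which mark macrophages and monocytes in general, did not pass.

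Receptors with which macrophages sense microbes and particles rose in 11 of 20 tested members with 0 lower, and in 9 without mouse 3. The C-type lectins formed a group: Clec4d (2.04 ± 0.41, adjusted p = 0.00205), Clec4e (1.60 ± 0.32, adjusted p = 0.00199), Clec4n (1.50 ± 0.19, adjusted p = 2.8e-06) and the beta-glucan receptor Clec7a (0.64 ± 0.12, adjusted p = 0.000852). Clec4n measured 24.3, 31.5 and 54.9 CPM in KO silica lungs, against 9.56, 11.7 and 14.9 CPM in KO air lungs, without overlap. Cd14, the coreceptor for lipopolysaccharide, measured 16.2, 20.7 and 25.8 CPM in KO silica lungs, against 5.02, 7.73 and 10.1 CPM in KO air lungs (1.40 ± 0.19, adjusted p = 5.31e-06), again without overlap. The scavenger receptor Msr1 (1.23 ± 0.29, adjusted p = 0.00981), the inhibitory antibody receptor Fcgr2b (1.00 ± 0.18, adjusted p = 0.000443) and the toll-like receptor Tlr2 (0.63 ± 0.12, adjusted p = 0.000927) rose, while Tlr1, Tlr4 and Tlr7 did not pass. Tlr13, which senses bacterial RNA, and the oxidised-lipid receptor Olr1 lost their calls without mouse 3 (adjusted p = 0.0933 and 0.0748), Tlr13 also without air mouse 4 and Olr1 also without air mouse 5 or 6.

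**Figure D3:**
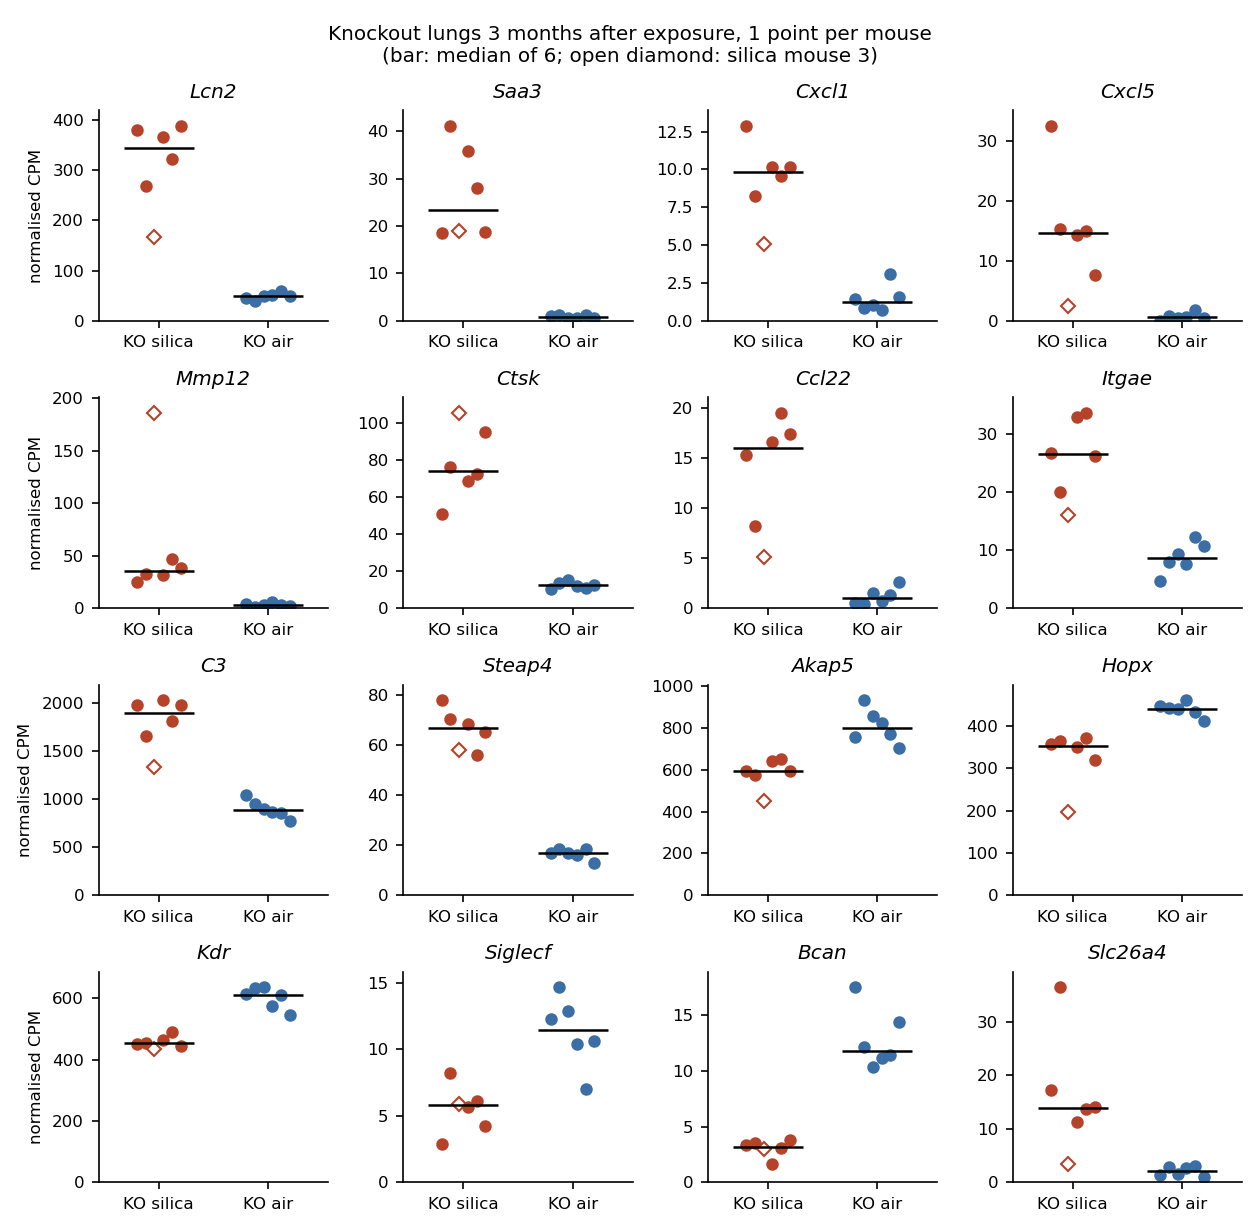
Normalised CPM of 16 named genes in each of the 6 KO silica (left, red) and 6 KO air (right, blue) lungs of 3 months, on axes that start at 0, with a bar at the median and silica mouse 3 as an open diamond. The silica points lie above the air points in 11 of the panels shown, Slc26a4 among them, and for Akap5, Hopx, Kdr and Bcan they lie below; in Siglecf 1 silica lung reaches into the air range.

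The other genes of the 20 largest increases had various roles. Ly6i, a surface antigen of the Ly6 family, had the largest fold change of the named genes, 5.31 ± 0.63, adjusted p = 7.59e-07. In air, 4 lungs held 0 counts and the other 2 held 3 and 2, while mouse 3 held 2 counts (0.845 CPM) and the other 5 silica lungs 12.9 to 28.3 CPM. Wfdc17, a secreted protease inhibitor of activated macrophages, measured 5.25, 6.82 and 12.9 CPM in KO silica lungs, against 0, 0.209 and 1.41 CPM in KO air lungs (3.55 ± 0.45, adjusted p = 2.59e-06). H2-M2, a class I-like molecule of dendritic cells, measured 5.35, 6.99 and 8.59 CPM in KO silica lungs, against 0.471, 0.858 and 2.06 CPM in KO air lungs (2.73 ± 0.35, adjusted p = 3.08e-06). Ch25h, the enzyme that makes 25-hydroxycholesterol, rose by 2.55 ± 0.28, adjusted p = 1.65e-07, and Rgs1, a brake on chemokine receptor signalling, by 2.59 ± 0.42, adjusted p = 0.000165. Wfdc17, H2-M2 and Ch25h did not overlap between the groups. F8, coagulation factor VIII, entered the 20 largest increases through 1 animal: mouse 3 held 296 CPM, the other 5 silica lungs 6.20 to 13.0 CPM and the air lungs 8.79 to 12.4 CPM. Its log2 fold change was 2.52 ± 0.70, adjusted p = 0.0304 with mouse 3 and -0.13 (adjusted p = 0.873) without it.

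Dendritic cell genes had the largest share of increases of any list, 11 of 13 tested members with 0 lower, and a median of 0.99. The list holds 16 members, and the rest did not pass the low-count filter. Ccl17 and Ccl22, given above with the CC chemokines, are counted in this list too. Itgae, the integrin CD103 of cross-presenting dendritic cells and of tissue T cells, measured 16.1, 26.5 and 33.6 CPM in KO silica lungs, against 4.71, 8.62 and 12.3 CPM in KO air lungs (1.59 ± 0.19, adjusted p = 6.38e-07). Xcr1, the chemokine receptor that defines those dendritic cells, measured 3.52, 7.75 and 12.6 CPM in KO silica lungs, against 1.06, 2.43 and 3.52 CPM in KO air lungs (1.86 ± 0.34, adjusted p = 0.000918). Itgae was higher in all 6 silica lungs than in any air lung, and in Xcr1 the lowest silica lung, mouse 2, was level with the highest air lung. Clec9a, which the same cells use to detect dead cells, rose by 0.88 ± 0.26, adjusted p = 0.0404 and lay at adjusted p = 0.0527 without mouse 3. The growth factor receptor Flt3 (0.88 ± 0.22, adjusted p = 0.0172) and the lineage factor Zbtb46 (0.49 ± 0.13, adjusted p = 0.0272) rose too. With 1 mouse left out, the call was lost in 9 of 12 fits for Clec9a, in 5 for Zbtb46 and in 6 for Cacnb3, a calcium channel subunit (0.58 ± 0.16, adjusted p = 0.0313), and for Flt3 without air mouse 3 (adjusted p = 0.0525). Among maturation genes, Cd86, a costimulatory ligand, measured 11.4, 13.1 and 16.1 CPM in KO silica lungs, against 2.77, 5.20 and 7.73 CPM in KO air lungs (1.29 ± 0.21, adjusted p = 0.000151), and Cd83 rose by 0.99 ± 0.19, adjusted p = 0.001. The actin bundler Fscn1 reached 94.2 CPM in mouse 3 and 14.1 to 31.5 CPM in the other 5 silica lungs, against 5.84 to 11.4 CPM in KO air lungs (1.89 ± 0.35, adjusted p = 0.000936, and 1.18 without mouse 3). Ccr7, the lymph node homing receptor, did not pass.

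MHC class II genes, which present antigen to helper T cells, rose in 7 of 11 tested members with 0 lower. H2-Ab1 measured 377, 452 and 484 CPM in KO silica lungs, against 233, 273 and 298.9 CPM in KO air lungs (0.70 ± 0.07, adjusted p = 9.5e-08), and H2-Eb1 measured 224, 282 and 339 CPM in KO silica lungs, against 135, 174 and 190.3 CPM in KO air lungs (0.74 ± 0.09, adjusted p = 1.5e-06). H2-Aa (0.41 ± 0.06, adjusted p = 3.19e-05) and the invariant chain Cd74 (0.40 ± 0.07, adjusted p = 0.000325) rose by less and did not overlap either. Their master regulator Ciita (0.66 ± 0.13, adjusted p = 0.00125) and the peptide-loading chain H2-DMb1 (0.64 ± 0.13, adjusted p = 0.00171) rose in parallel. H2-Eb2 (0.98 ± 0.28, adjusted p = 0.0373) lost its call in 6 of the 12 fits that left out 1 mouse. Of 11 class I and immunoproteasome genes only H2-K1 (0.49 ± 0.08, adjusted p = 6.23e-05) and Psmb8 passed, and Psmb8 lost its call without mouse 3 and in 8 of the other 11 such fits.

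Lymphocyte genes moved little. Of 8 tested T cell and natural killer cell genes 0 passed, with log2 fold changes between -1.05 for the granzyme Gzma and 0.30 for the interleukin 7 receptor Il7r. Ctla4, the inhibitory receptor of regulatory T cells, rose by 1.45 ± 0.36, adjusted p = 0.0157, the 1 of 6 tested members of its list to pass. Of 13 B cell and plasma cell genes, Cxcl13, the chemokine of B cell follicles, and Jchain, which joins immunoglobulin chains in plasma cells, passed (2.77-fold and 3.48-fold). Neither passed without mouse 3 (adjusted p = 0.0558 and 0.239), and Cxcl13 also failed without mouse 6 and Jchain in 4 other such fits. Jchain stood at 248 CPM in mouse 3 and 113 CPM in mouse 2, against 15.5 to 37.7 CPM in KO air lungs.

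Complement genes rose in 10 of 18 tested members, with and without mouse 3, and 0 fell. C3, the central component on which all complement pathways meet, measured 1335, 1899 and 2033 CPM in KO silica lungs, against 769, 884 and 1041 CPM in KO air lungs (1.00 ± 0.09, adjusted p = 2.65e-09). Cfb, the protease of the alternative pathway, measured 64.6, 93.7 and 109 CPM in KO silica lungs, against 27.1, 36.6 and 42.6 CPM in KO air lungs (1.32 ± 0.16, adjusted p = 1.3e-06). The anaphylatoxin receptor C3ar1 (1.26 ± 0.24, adjusted p = 0.00125), properdin Cfp (0.66 ± 0.16, adjusted p = 0.0125) and C4b (0.44 ± 0.10, adjusted p = 0.00665) rose as well. The groups did not overlap in C3, Cfb or C3ar1, while the inhibitor Serping1 did not pass.

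NF-kappa-B genes, among them the feedback inhibitors of the pathway, rose in 13 of 18 tested members with 0 lower, and in 10 without mouse 3. Tnfaip3, the ubiquitin-editing inhibitor A20, measured 55.6, 61.0 and 64.6 CPM in KO silica lungs, against 26.0, 31.0 and 43.7 CPM in KO air lungs (0.88 ± 0.13, adjusted p = 6.23e-05). Nfkbie, an inhibitor of nuclear entry, measured 19.5, 25.1 and 26.0 CPM in KO silica lungs, against 9.56, 11.1 and 12.5 CPM in KO air lungs (1.06 ± 0.15, adjusted p = 1.57e-05), and Nfkbia rose by 0.63 ± 0.11, adjusted p = 0.00021. The subunit genes Nfkb2 (0.75 ± 0.13, adjusted p = 0.000325) and Relb (0.83 ± 0.20, adjusted p = 0.00988) rose, whereas Rela and Nfkb1 did not pass. The tumour necrosis factor gene Tnf rose by 1.05 ± 0.31, adjusted p = 0.0414, with overlapping groups at 3.80 to 14.1 CPM in KO silica lungs, against 2.08 to 5.27 CPM in KO air lungs. Tnfaip2 (0.75 ± 0.12, adjusted p = 0.000121) and the apoptosis inhibitor Birc3 (0.52 ± 0.11, adjusted p = 0.00319) also rose. Rel and the nuclear cofactor Bcl3 lost their calls without mouse 3 (adjusted p = 0.0836 and 0.111). With other single mice left out, calls were lost in 7 of 11 fits for Rel, 5 for Bcl3 and 7 for Tnf (adjusted p up to 0.113). Of the 11 NF-kappa-B list genes that rose and had a promoter in the table, 4 held the motif printed above: Nfkb2, Nfkbia, Rel and Tnfaip3.

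In the interleukin 1 family the antagonist moved and the agonists did not pass. Il1rn, which blocks the interleukin 1 receptor, measured 19.6, 22.4 and 26.6 CPM in KO silica lungs, against 2.77, 5.38 and 7.54 CPM in KO air lungs (2.08 ± 0.18, adjusted p = 1.14e-09), and the lowest silica lung held more than 2-fold the highest air lung. Il1b measured 15.0, 22.2 and 38.2 CPM in KO silica lungs, against 11.0, 13.9 and 19.6 CPM in KO air lungs and did not pass (0.70 ± 0.26, adjusted p = 0.118). Il1rl1, the receptor for interleukin 33, rose by 1.11 ± 0.21, adjusted p = 0.00108. Of the 14 tested genes of this list, inflammasome parts Nlrp3, Pycard and Casp1 did not pass. Casp4, the sensor of cytosolic lipopolysaccharide, passed only with mouse 3 (0.58 ± 0.17, adjusted p = 0.0484, against 0.0943 without it), and lost its call in 8 of the other 11 fits that left out 1 mouse.

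Interferon-stimulated genes passed in 2 of 19 tested members. Isg15, a ubiquitin-like modifier (1.29 ± 0.38), and Ifi44 (1.06 ± 0.29) were called, with adjusted p of 0.0439 and 0.0273, and of 0.105 and 0.0599 without mouse 3. Leaving out other single mice cost Isg15 its call in 8 of 11 fits and Ifi44 in 5, and without mouse 3 the interferon-induced Ifit1 and Ifit3 passed in their place. Cell division genes included the proliferation antigen Mki67, at 36.4, 67.8 and 109 CPM in KO silica lungs, against 30.4, 32.2 and 40.1 CPM in KO air lungs (1.10 ± 0.16, adjusted p = 1.96e-05), and topoisomerase Top2a, at 14.1, 21.3 and 39.3 CPM in KO silica lungs, against 2.08, 10.7 and 11.3 CPM in KO air lungs (1.30 ± 0.21, adjusted p = 0.000151). These were the 2 of 9 tested members that passed, and mouse 3 was the highest in both, while in Mki67 the lowest silica lung lay within the air range.

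Lysosome genes rose in 9 of 26 tested members with mouse 3, and in 5 without it, when 1 fell. The summed level of this list was 4958 to 7854 CPM in KO silica lungs, with mouse 3 the highest, against 4357 to 4666 CPM in KO air lungs. Beyond Ctsk and Ctsd, the protease Ctsz (0.85 ± 0.11, adjusted p = 5.31e-06) and the sphingolipid activator Psap (0.44 ± 0.09, adjusted p = 0.002) rose with and without mouse 3. Genes of iron and metal handling rose in 5 of 13 tested members. Steap4, a metalloreductase, measured 55.8, 66.6 and 77.7 CPM in KO silica lungs, against 12.8, 17.0 and 18.5 CPM in KO air lungs (1.96 ± 0.16, adjusted p = 2.01e-10), and its lowest silica lung was more than 2-fold above its highest air lung. The ferritin light chain Ftl1 (0.47 ± 0.11, adjusted p = 0.00665) rose slightly, and the zinc and iron carrier Slc39a14 (0.59 ± 0.15) passed only with mouse 3 (adjusted p = 0.0615 without it).

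Of 18 tested NRF2 target and glutathione genes 3 rose and 0 fell. Slc7a11, the cystine carrier that feeds glutathione synthesis, measured 11.5, 17.9 and 28.3 CPM in KO silica lungs, against 2.58, 2.74 and 7.63 CPM in KO air lungs (2.13 ± 0.29, adjusted p = 1.11e-05). The other members were mitochondrial Sod2, by 0.35 ± 0.07, adjusted p = 0.00291, and Prdx1, by 0.31 ± 0.08, adjusted p = 0.0172, which did not pass without mouse 3 (adjusted p = 0.0597). Classical NRF2 targets Nqo1, Gclc, Gclm, Hmox1 and Txnrd1 did not pass. The list median was 0.06, near that of all genes.

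Among epithelial genes the alveolar type 1 list, genes of the flat gas-exchange cells, was the one that fell: 6 of 16 tested members were lower and 0 higher, 7 lower without mouse 3, and in 7 members all silica lungs lay below all air lungs. The median was -0.23. In the fit of the 12 compared libraries alone, and in that of all 70, 3 members were called lower. Akap5, a kinase anchor, measured 450.4, 594 and 652 CPM in KO silica lungs, against 701, 797 and 932 CPM in KO air lungs (-0.46 ± 0.07, adjusted p = 0.000113). Hopx, a homeodomain cofactor, measured 198, 354 and 373 CPM in KO silica lungs, against 411, 442 and 461 CPM in KO air lungs (-0.43 ± 0.10, adjusted p = 0.0059). In both, mouse 3 was the lowest lung and the remaining silica lungs stayed below all air lungs. The membrane protein Emp2 (-0.31 ± 0.07, adjusted p = 0.0113), the channel-like Clic5 (-0.28 ± 0.08, adjusted p = 0.0376), caveolin Cav1 (-0.20 ± 0.06, adjusted p = 0.0379) and the receptor Gprc5a (-0.32 ± 0.06, adjusted p = 0.0015) fell too, all without overlap. Clic5 and Cav1 lost their calls in 4 and 5 of the 12 fits that left out 1 mouse (adjusted p up to 0.0939 and 0.0973). Ager, Pdpn and Aqp5, frequent markers of the same cells, did not pass.

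Alveolar type 2 genes, which make surfactant, went both ways, with 3 of 14 tested members higher and 1 lower. Sftpd, a collectin that coats microbes and particles, measured 504, 804 and 878 CPM in KO silica lungs, against 409.8, 451 and 541 CPM in KO air lungs (0.74 ± 0.09, adjusted p = 2.8e-06), with mouse 3 the lowest silica lung and inside the air range. Its relative Sftpa1 (0.28 ± 0.08, adjusted p = 0.0436) and the lamellar body protein Lamp3 (0.25 ± 0.07, adjusted p = 0.043) rose slightly, and their calls were lost in 10 and 8 of the 12 fits that left out 1 mouse. Sftpb, a hydrophobic surfactant protein, fell to 1358, 1619.9 and 1875 CPM in KO silica lungs, against 1818, 1977 and 2225 CPM in KO air lungs (-0.30 ± 0.07, adjusted p = 0.00618). Sftpc did not pass (-0.08 ± 0.05, adjusted p = 0.467). Of 15 tested genes of stressed and transitional epithelium 3 rose, and Krt8, Krt18, Krt19 and Sfn were not among them: the 3 were Lgals3, the urokinase receptor Plaur (0.56 ± 0.13, adjusted p = 0.00709) and the NF-kappa-B inhibitor Tnip3 (1.07 ± 0.32, adjusted p = 0.0452, lost in 8 of the 12 fits).

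Of 10 tested club and airway secretory genes 1 rose, Pigr as given above, and 1 fell, with a median of -0.07, and without mouse 3 the counts were 1 and 2, with a median of 0.10. Cyp2f2, the club cell P450 enzyme, measured 558, 1076 and 1265 CPM in KO silica lungs, against 1280.1, 1315 and 1416 CPM in KO air lungs (-0.37 ± 0.11, adjusted p = 0.0481), and Scgb1a1, the club cell secretory protein, was lower without passing (-0.37 ± 0.12, adjusted p = 0.0687). In both all silica lungs lay below all air lungs and mouse 3 was by far the lowest. Without mouse 3 Scgb1a1 passed, with a log2 fold change of -0.23 (adjusted p = 0.0153). Of 18 tested xenobiotic enzymes 6 fell and 0 rose, and 4 fell without mouse 3. Ces1g, a carboxylesterase, measured 6.34, 7.35 and 9.39 CPM in KO silica lungs, against 10.1, 13.8 and 29.7 CPM in KO air lungs (-1.14 ± 0.26, adjusted p = 0.00731), without overlap, and its paralog Ces1f, outside that list, changed by -1.32 ± 0.29, adjusted p = 0.00493. Cyp1a1, the P450 enzyme induced through the aryl hydrocarbon receptor, changed by -1.36 ± 0.38, adjusted p = 0.033, with air mouse 2 at 33.5 CPM far above the rest. Glutathione transferase Gstm1 (-0.42 ± 0.10, adjusted p = 0.00851) and the P450 enzyme Cyp4b1 (-0.28 ± 0.07, adjusted p = 0.0201) fell as well, as did the flavin monooxygenase Fmo2 (-0.28 ± 0.08, adjusted p = 0.0497). Cyp2f2 and Fmo2 each lost their call in 9 of the 12 fits that left out 1 mouse, Cyp1a1 in 4 (adjusted p up to 0.258), and Cyp4b1 without air mouse 4 or 6. Of 12 ciliated cell genes 0 passed, and without mouse 3 the dynein chain Dnah9 was higher (0.33, adjusted p = 0.0146).

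Of 20 tested endothelial genes only Kdr, the main receptor for vascular endothelial growth factor, passed (without mouse 3 also Eng, -0.41, adjusted p = 0.0167). Kdr measured 435, 452 and 490.1 CPM in KO silica lungs, against 545, 611 and 635 CPM in KO air lungs (-0.40 ± 0.06, adjusted p = 4.44e-05), so that all silica lungs, mouse 3 included, lay below all air lungs. Of 25 tested matrix and fibrosis genes 4 rose and 0 fell, against 2 higher and 1 lower without mouse 3. Mouse 3 held a summed level of 10328 CPM of this list, the other 5 silica lungs 4823 to 6044 CPM and KO air lungs 4988 to 6483 CPM. The decrease was that of the matrix protein Sparc (-0.26, adjusted p = 0.0101), and the fibrillar collagens Col1a1, Col1a2 and Col3a1 did not pass. Timp1, the inhibitor of matrix proteases, measured 5.72, 8.77 and 13.9 CPM in KO silica lungs, against 1.55, 3.82 and 5.55 CPM in KO air lungs (1.35 ± 0.34, adjusted p = 0.0172), without overlap, and lost its call without air mouse 3 (adjusted p = 0.0516). Col15a1 and Tnc, which also rose, were highest in mouse 3. Basement membrane collagen Col15a1 stood at 160 CPM there, against 15.3 to 25.2 CPM in the other 5 silica lungs and 10.6 to 13.4 CPM in KO air lungs (1.95 ± 0.44, adjusted p = 0.00712, and 0.80 with adjusted p = 0.00672 without mouse 3). Tenascin Tnc (0.83 ± 0.22) had an adjusted p of 0.0681 without mouse 3.

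Most of the 15 largest decreases were in low-expressed genes with no known shared role. Bcan, the proteoglycan brevican best known from brain, was the clearest, at 1.62, 3.20 and 3.82 CPM in KO silica lungs, against 10.3, 11.8 and 17.4 CPM in KO air lungs (-2.08 ± 0.26, adjusted p = 1.82e-06). Its highest silica lung lay far below its lowest air lung. The adhesion molecule Cadm2 (-1.47 ± 0.31, adjusted p = 0.00341), the calcium-binding Cpne5 (-1.26 ± 0.33, adjusted p = 0.0215), the transmembrane protein Lrtm2 (-1.26 ± 0.31, adjusted p = 0.0129) and the platelet tubulin Tubb1 (-1.16 ± 0.32, adjusted p = 0.0273) followed. Chrm3, the muscarinic receptor of airway smooth muscle, changed by -1.10 ± 0.26, adjusted p = 0.00873, and Camsap3, which anchors microtubules in epithelial cells, by -0.89 ± 0.18, adjusted p = 0.00235. The remaining ones were Phf24 (-0.95 ± 0.19, adjusted p = 0.00195), Tchh (-0.97 ± 0.24, adjusted p = 0.0157) and the fibronectin-domain gene Fndc1 (-0.93 ± 0.24, adjusted p = 0.0172). In Bcan, Cadm2, Tubb1, Camsap3 and Phf24 the groups did not overlap. Calls were lost without air mouse 1 or 6 for Tubb1 (adjusted p up to 0.0824), without air mouse 2 for Fndc1 (adjusted p = 0.0677) and in 3 of the 12 fits for Cpne5 and for Tchh.

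Single calls came from other lists: the transcription factor Junb (0.67 ± 0.16, adjusted p = 0.0113), thromboxane synthase Tbxas1 (0.69 ± 0.16, adjusted p = 0.0103), the clock repressor Bhlhe41 (0.84 ± 0.22, adjusted p = 0.0226, not passing without mouse 3 or in 5 of the other 11 such fits) and, as a decrease, the desaturase Scd2 (-0.30 ± 0.07, adjusted p = 0.008). The lists of Junb, Tbxas1 and Bhlhe41 had 0 calls in the fit of all 70 libraries. Tissues that a lung piece may include were looked at as well. Of 16 tested heart muscle genes, which mark the muscle sleeve of the pulmonary vein, 0 passed. Their summed level was 147 to 2008 CPM in KO silica lungs, with mouse 3 the lowest, against 664 to 2158 CPM in KO air lungs, and Mb was at 0 in mouse 3. Fat cell genes summed to 5679 CPM in mouse 3 and 1845 to 2404 CPM in the other 5 KO silica lungs, against 2245 to 3916 CPM in KO air lungs. Of 7 tested members 1 passed, Lpl, which did not pass without mouse 3. Car3 of the same list went the other way, at 2.11 CPM in mouse 3, against at least 7.07 CPM in the other knockout lungs. The cholesterol and fatty acid synthesis list summed to 9358 CPM in mouse 3 and 4689 to 5580 CPM in the other 5 silica lungs. That list shares Scd1 with the fat cell list and summed to 5544 to 7617 CPM in KO air lungs. The part of heart muscle and fat tissue in the results was not tested.

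Wildtype lungs of the same time shared part of this response. There 374 of the 12647 genes were called (2.96%), 283 higher (2.24%) and 91 lower (0.72%). Both genotypes called 212 genes, 34.9% of the knockout calls and 56.7% of the wildtype calls, and all 212 moved the same way. Of the 607 knockout calls 549 had the same sign in wildtype lungs. The share with the same sign among all tested genes was not worked out, so this count has no level to be read against. A direct test of the difference between the knockout and the wildtype silica effect called 0 genes (0%) in edgeR, with 970 at an unadjusted p under 0.05. Without KO silica mouse 2 the 1 gene called was Lars2 (-0.64, adjusted p = 0.0332). DESeq2 called 4: Ndnf, collagen Col3a1 and S100a6 with a negative difference and Tinagl1 with a positive one. The gene nearest the threshold was Ndnf, a secreted factor of neurons and vessels. It measured 179.7, 196 and 245 CPM in KO silica lungs, against 254, 285 and 369.6 CPM in KO air lungs, and 185, 238 and 269 CPM in WT silica lungs, against 161, 189 and 247 CPM in WT air lungs. The silica effect was -0.53 ± 0.10, adjusted p = 0.00109 in knockout lungs and 0.26 ± 0.10 (adjusted p = 0.202) in wildtype lungs, and the difference was -0.79 ± 0.14 (adjusted p = 0.0533 in edgeR, 0.0434 without mouse 3 and 0.000558 in DESeq2). Leaving out each of the 24 mice in turn gave adjusted p of 0.00419 (without WT air mouse 2) to 0.178 (without WT silica mouse 1). The next were Israa at 0.72 ± 0.16 and Col3a1 at -0.57 ± 0.13, each with an adjusted p of 0.342.

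For the 20 largest increases the knockout minus wildtype difference ran between -1.12 for Cxcl5 and 2.41 for F8, and for all 20 it missed the threshold (adjusted p of 0.634 or more). Lcn2 changed by 2.70 ± 0.15 in knockout and 2.72 ± 0.14 in wildtype lungs, a difference of -0.02 ± 0.21, and Ctsk by 2.66 ± 0.16 and 2.67 ± 0.15, a difference of -0.00 ± 0.24. Some genes were called in knockout lungs with a wildtype value near 0, such as Camsap3 (-0.89 ± 0.18 and 0.10 ± 0.16), Cadm2 (-1.47 ± 0.31 and 0.07 ± 0.27) and Kdr (-0.40 ± 0.06 and -0.10 ± 0.06). Their differences between genotypes did not pass adjustment, with adjusted p of 0.403, 0.409 and 0.409. In the alveolar type 1 list 6 members fell in knockout lungs, against 1 in wildtype lungs, and for Hopx and Akap5 the difference was -0.29 ± 0.13 and -0.28 ± 0.10, with adjusted p of 0.634 and 0.569. A p that misses the threshold does not show that these effects were equal.

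**Figure D4:**
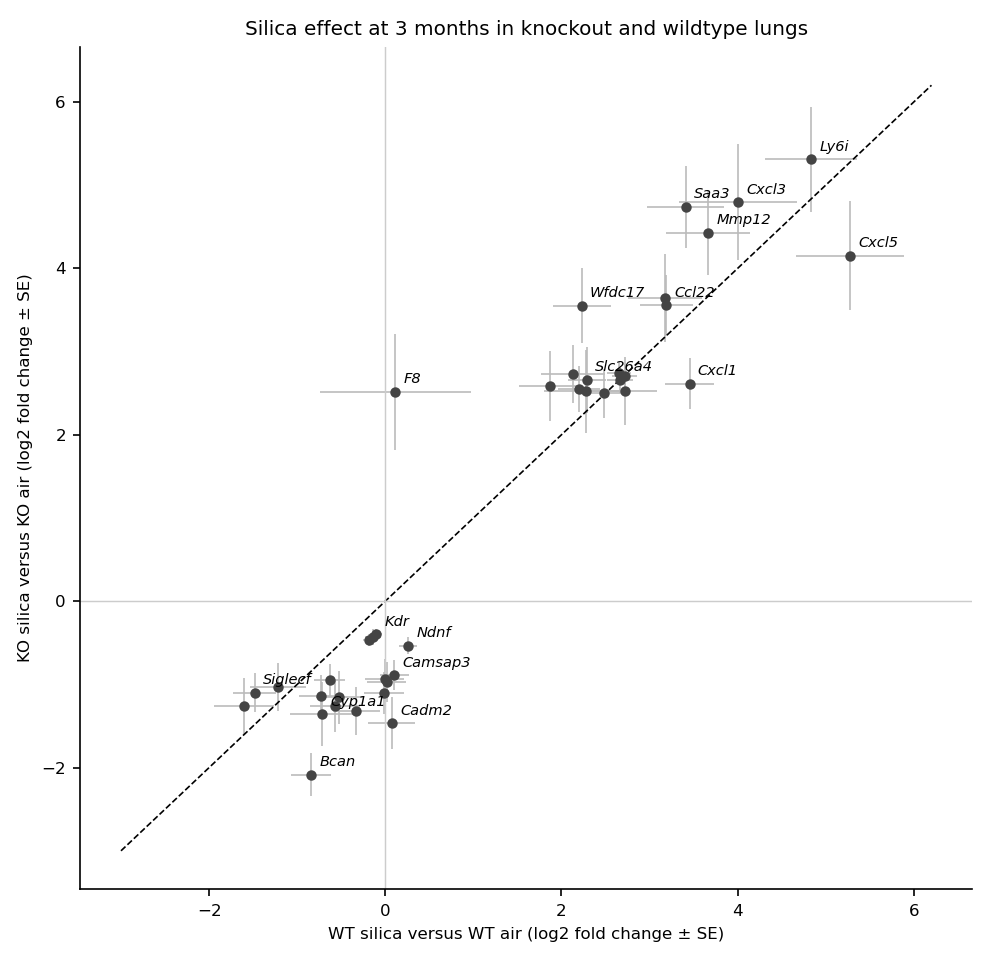
Log2 fold change with its standard error for silica against air at 3 months in knockout (vertical axis) and wildtype lungs (horizontal axis) for the 20 largest increases and 15 largest decreases in knockout lungs and for Ndnf, Kdr, Akap5 and Hopx. Most increases lie near the dashed line of equal effects, F8 lies off it at 2.52 in knockout and 0.11 in wildtype lungs, and Ndnf lies below it.

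Over time, the knockout response was present at 1 day, and the number of called genes was highest at 3 months and lowest at 9 months. In 1 model of all 70 libraries with 13252 tested genes, silica raised 170 genes (1.28%) and lowered 14 (0.106%) at 1 day, 214 (1.61%) and 92 (0.694%) at 3 months, and 79 (0.596%) and 68 (0.513%) at 9 months. The difference between 3 months and 1 day called 0 genes (0%) in edgeR, with 854 at an unadjusted p under 0.05, and DESeq2 called 3 (Clca1, Lepr and Ndnf). Leaving out 1 knockout mouse of either time gave 0 to 7 calls, with 7 without silica mouse 6 of 1 day. The difference between 3 and 9 months called 96 genes with a higher value at 3 months (0.724%) and 74 with a lower one (0.558%), 259 genes in all with DESeq2 and 29 (8 higher, 21 lower) with only the 24 libraries compared. Without KO silica mouse 3 of 3 months it called 92, with 44 higher and 48 lower. The count moved with single lungs of either exposure: among air lungs it was 22 without mouse 5, 28 without mouse 4, 266 to 275 without mouse 2, 3 or 6 and 454 without mouse 1 of 9 months, and 54 without mouse 2 and 105 to 111 without mouse 3, 4 or 6 of 3 months. Among silica lungs it was 65 without mouse 1, 74 without mouse 5, 84 without mouse 4, 98 without mouse 3 and 408 without mouse 2 of 9 months, and 86 without mouse 4 of 3 months. The difference between times carries the air lungs of each time too, and those of 9 months ran high in inflammatory genes in some mice.

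Cxcl1 illustrates the course. At 1 day it measured 12.4, 24.5 and 30.0 CPM in KO silica lungs, against 0.491, 0.642 and 1.24 CPM in KO air lungs. At 9 months it measured 4.35, 10.4 and 15.9 CPM in KO silica lungs, against 1.76, 3.07 and 40.9 CPM in KO air lungs. The silica lungs of 9 months were thus close to those of 3 months, and the highest air lung of 9 months lay above every silica lung. Its log2 fold change was 4.82 ± 0.61 at 1 day, 2.61 ± 0.61 at 3 months and -0.05 ± 0.40 at 9 months.

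Dendritic cell genes were called in 2 of 13 tested members at 1 day, 9 at 3 months and 3 at 9 months in that model. The direct test of the difference between 3 and 9 months called 0 of these 13. That between 3 months and 1 day called 0 genes of any list, so these counts do not show a change over time. Itgae measured 8.10, 10.7 and 16.8 CPM in KO silica lungs of 1 day, against 6.48, 9.40 and 10.8 CPM in KO air lungs, and 15.4, 18.4 and 24.4 CPM in KO silica lungs of 9 months, against 6.67, 10.4 and 13.9 CPM in KO air lungs. Its difference between 3 months and 1 day was 1.34 ± 0.30 (adjusted p = 0.103), among the 3 smallest p of that comparison with Ndnf (-0.74 ± 0.15, adjusted p = 0.0981) and the nucleotide synthesis gene Prps1 (-0.95 ± 0.21, adjusted p = 0.103). Cell division genes went the other way in number, with 8 of 15 tested members called at 1 day and 2 at 3 months. The direct test between these times called 0 of them. Ly6i and Ccl22 were called at all 3 times, with log2 fold changes of 3.89, 5.31 and 3.31 for Ly6i and 2.12, 3.55 and 2.26 for Ccl22.

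Among the genes with the smallest adjusted p for a larger effect at 3 than at 9 months were Saa3, Mmp12, Ch25h, C1qa and the macrophage lectin Mgl2. For Mmp12 the silica lungs of 9 months held 37.1, 45.7 and 51.8 CPM and the air lungs 2.22, 21.0 and 200.5 CPM. Silica lungs of 3 months held at most 47.0 CPM apart from mouse 3, at 186 CPM. The silica lungs of 9 months thus lay within the range of 3 months only with mouse 3 counted. The highest air lung of 9 months lay above every silica lung of both times. Mgl2 measured 27.0, 47.1 and 55.3 CPM in KO silica lungs, against 11.8, 18.8 and 23.2 CPM in KO air lungs at 3 months, and 23.6, 32.7 and 42.0 CPM in KO silica against 13.7, 25.0 and 105 CPM in KO air lungs at 9 months. The other members of that set were the membrane-binding Anxa2, the lysosomal enzyme Gusb, the metal carrier Slc39a14, ribosomal Rps2 and myosin light chain Myl6. A smaller value at 3 than at 9 months was found for the lung developmental factors Nfia (-0.73 ± 0.12, adjusted p = 0.000639) and Nfib (-0.43 ± 0.09, adjusted p = 0.00868), with Atf7, Rpusd2, R3hdm2, Mir6236, Sema6a, Pcbp2, Vezf1 and Cbx7.

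**Figure D5:**
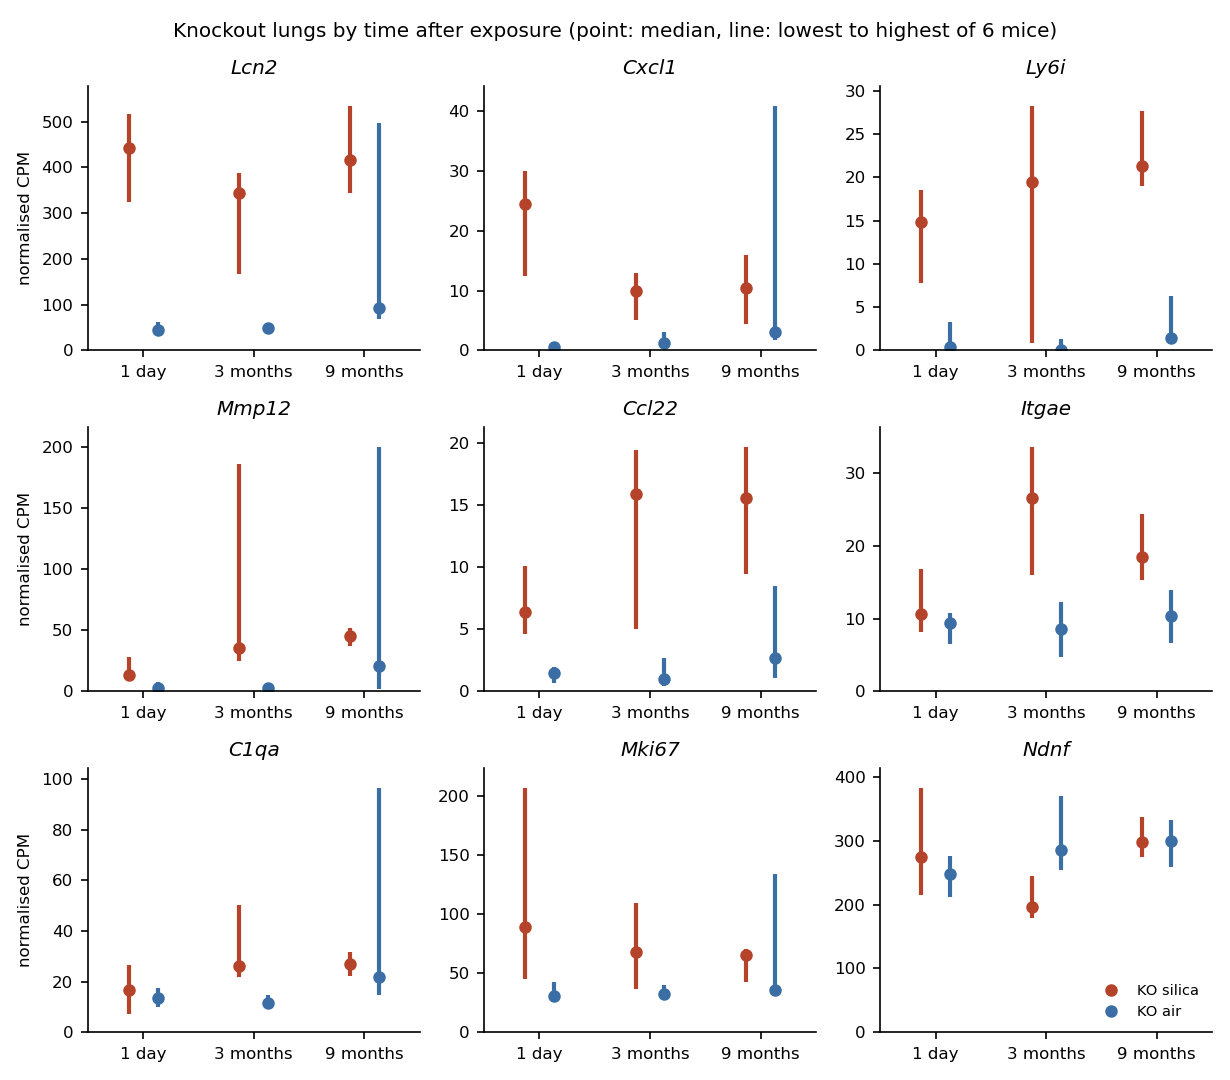
Normalised CPM of 9 genes in knockout lungs 1 day, 3 months and 9 months after exposure, with silica (red, left) and air (blue, right) beside each other, a point at the median and a line from the lowest to the highest of 6 mice. Air lungs of 9 months reach high values in Lcn2, Cxcl1, Mmp12 and C1qa, and in Ndnf at 3 months all silica lungs lie below all air lungs.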

How the data were processed

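Lung RNA of 70 mice was sequenced by the authors from rRNA-depleted stranded libraries, per the labels' protocols. The submitters' processing notes name bcl2fastq 2.19, Trimmomatic 0.35, HISAT2 2.1.0, Cufflinks, SAMtools 1.8, HTSeq 0.11.2 and build mm10, and the annotation, the strand setting and the handling of reads shared by similar genes are not given in the sources used here. Genes with near-identical relatives (Ly6i, Serpina3g, Serpina3n, Ces1f, Ces1g, Chil3, Ear1, Gstm1, the Clec4 lectins, Sftpa1) are therefore uncertain. The same holds for Csf2rb and its close relative Csf2rb2, whose increases may not be separate. The source of the reads assigned to Lars2 and to Mir6236 was not tested either. The deposited table holds raw counts per gene, whole numbers that the authors did not normalise. Of its 24439 rows, 19 repeated ones were dropped.

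Counts were tested with edgeR 4.0.16 in R 4.3.3 (filterByExpr, TMM normalisation, quasi-likelihood test, Benjamini-Hochberg adjustment over all tested genes, threshold 0.05). The 3-month contrasts came from 1 fit of the 24 libraries of that time, and contrasts between times from 1 fit of all 70. Standard errors are the log2 fold change divided by the square root of F, shown after ± as log2 values. Normalised CPM uses TMM factors of all 70 libraries. DESeq2 1.42.0, limma 3.58.1 (voom with quality weights), other filters, other sets of libraries and the omission of single mice were alternatives. On simulated counts for 12565 genes of the KO comparison, 95.5% of genes changed 2-fold and 59.7% of genes changed 1.5-fold were called, with 5 false calls of 173. The simulated counts had 1 spread per gene for all 24 libraries and no animal that stood apart as mouse 3 did. These shares therefore need not hold for the real comparison.

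Named by rule were the 20 called genes with the largest increase and the 15 with the largest decrease at a mean of at least 1 CPM, plus members of 48 lists (672 distinct genes, 7 symbols not found in the table, Ly6g among them). The groups, lists and tests were chosen with earlier results of these data known. Some list members are counted but not reported here. A list is described by its counts and median with no test of its own. Lists overlap, with 719 entries for the 672 distinct genes, so the same gene can be counted in more than 1 list. The low-count filter counts silica and air libraries alike, so a gene low in air may be tested only because silica lungs held it. Shares and medians of tested members can run high for that reason in lists of low genes. Labels give each mouse its own number and no batch. P-values measure the spread between animals. Library depth was 802478 to 5596316 counts over all libraries, and the interval of the Cxcl3 ratio covers counting error only.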

Additional observations from a re-analysis of the deposited data

Results flagged for a closer look

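Within groups of 6, a mouse was singled out when its gap to the nearest other mouse, divided by the range of the group, exceeded Dixon's 95% critical value. Of 340 groups looked at, 45 had such a mouse, where chance gives about 1 in 20, and 31 of the 45 were KO silica mouse 3. No cause was tested.

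KO silica mouse 3 was far above the other 5 silica mice in 22 of these genes. Among macrophage genes it held 186 CPM of Mmp12, 267 CPM of Gpnmb, 144 CPM of Atp6v0d2, 243 CPM of Lgals3, 16.5 CPM of Trem2 and 1515 CPM of Ctsd. It also held 1409 CPM of Chil3, 187 CPM of Itgax, 97.6 CPM of Cd68, 645 CPM of Apoe and 49.0 CPM of Krt79. Other immune and lysosome genes were Ccl6 at 412 CPM, Clec4n at 54.9 CPM, Fscn1 at 94.2 CPM, Tlr13 at 36.3 CPM, Tnfaip2 at 130.1 CPM, Ctsz at 208 CPM and Psap at 1321 CPM. Among division, matrix and clotting genes it held 39.3 CPM of Top2a, 112 CPM of Tnc, 160.1 CPM of Col15a1 and 296 CPM of F8. The same mouse was far below the others in Ccl17 (0.845 CPM), Retnla (17.7 CPM), Hopx (198 CPM), Emp2 (652 CPM), Clic5 (700.1 CPM), Sftpd (504 CPM), Sftpa1 (1765 CPM), Scgb1a1 (3901 CPM) and Tubb1 (0 CPM).

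Other single mice stood out in 14 groups. Among silica mice, mouse 1 was low in Lbp (41.0 CPM) and high in C4b (321 CPM), mouse 2 was low in Clec9a (2.35 CPM) and Ctla4 (1.17 CPM), and mouse 5 was high in Fabp1 (11.5 CPM). Among air mice, mouse 1 was high in Ifi44 (8.49 CPM) and Cp (412 CPM), mouse 2 in Cyp1a1 (33.5 CPM) and Ces1g (29.7 CPM), and mouse 3 in H2-M2 (2.06 CPM). Air mouse 5 was low in Tbxas1 (6.59 CPM), and air mouse 4 was high in Fabp1 (18.0 CPM) and low in Top2a (2.08 CPM) and Cidec (2.77 CPM).

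The knockout silica effect differed between 3 and 9 months in a direct test, and the 20 genes with the smallest p are given here. The log2 effect was larger at 3 months by 6.41 for Saa3, 4.56 for Mmp12, 0.47 for Anxa2, 1.64 for Mgl2 and 2.51 for Ch25h. It was also larger by 0.96 for Gusb, 1.30 for Rps2, 1.16 for Slc39a14, 0.51 for Myl6 and 1.76 for C1qa. The difference was -0.73 for Nfia, -0.62 for Atf7, -1.60 for Rpusd2, -0.73 for R3hdm2 and -1.65 for Mir6236. It was -0.43 for Nfib, -0.82 for Sema6a, -0.58 for Pcbp2, -0.53 for Vezf1 and -0.999 for Cbx7. Air lungs of 9 months ranged widely in several of these genes, with Saa3 at 12.0, 15.5 and 22.6 CPM in KO silica lungs, against 1.33, 3.63 and 241 CPM in KO air lungs of that time.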

How the results depend on the processing

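No paired analysis was possible because the labels give every mouse its own number and groups share none that pair animals. The KO silica against KO air count of 607 genes stayed between 539 and 608 with DESeq2 size factors, other filters, voom weights or DESeq2, and was 441 without silica mice 2 and 3, an alternative chosen after seeing the data. It was 319 with the 12 compared libraries alone and 306 with all 70. With single mice left out it ran between 431 (without air mouse 2) and 625 (without silica mouse 1). Slc26a4 ran between 2.43 and 2.88 there, and the low-count filter dropped it when only 12 libraries were fitted. The genotype difference called 1 gene, Ndnf, with DESeq2 size factors, 1 without a filter, 1 with all 70 libraries and 4 with DESeq2, and 0 to 1 with a mouse left out (Ndnf or, without KO silica mouse 2, Lars2). The difference between 3 months and 1 day called 3 genes with DESeq2, 1 with only the compared libraries and 0 to 7 with a mouse left out. The difference between 3 and 9 months called 259, 29 and 22 to 454 genes in the same settings, and leaving out mice other than those listed beforehand was chosen after seeing the data. F8 ran between -0.13 (without silica mouse 3) and 2.76 (without silica mouse 6) with a mouse left out, was -0.17 without mice 2 and 3, and the other named genes of the main comparison kept their sign in all alternatives. The cause of the other shifts was not tested. Depth limits low genes most: at 868097 counts in silica mouse 2, 1 count is already above 1 CPM.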

Other observations

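The genes that set KO silica mouse 3 apart were chosen after their values were seen. They hold endothelial genes in both directions, and no theme was tested. The summed level of the endothelial list in mouse 3, 5543 CPM, lay within that of the other 5 silica lungs, 4794 to 5634 CPM. Among the 73 genes at least 2-fold above the other 11 knockout lungs of 3 months was Esm1, an endothelial proteoglycan of sprouting tips, which stood at 181 CPM, against at most 22.9 CPM in the others. Apln, the ligand of the apelin receptor, stood at 261 CPM, against at most 52.0 CPM. Angpt2, an antagonist of vessel stability, stood at 120.4 CPM, against at most 38.8 CPM, and Cd34, an endothelial surface protein, at 462 CPM, against at most 141 CPM. Basement membrane collagens Col4a1 (2905 CPM, against at most 1077 CPM) and Col4a2 (1912 CPM, against at most 839 CPM) and the latent growth factor binding protein Ltbp2 (488 CPM, against at most 169 CPM) were also high there.

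Among the 95 genes at least 2-fold below the other 11 lungs were heart muscle genes, with the atrial myosin light chain Myl7 at 2.96 CPM, against at least 20.1 CPM in the others, and the myosin heavy chain Myh6 at 12.3 CPM, against at least 117 CPM. Endothelial genes were there too: von Willebrand factor Vwf stood at 233 CPM, against at least 569 CPM in the others, the endothelin receptor Ednrb at 30.0 CPM, against at least 135 CPM, and the receptor Calcrl at 355 CPM, against at least 1058 CPM. Thbd, Podxl and Tmem100 were also among them. Lyz1, a lysozyme of epithelium, stood at 79.4 CPM, against at least 170.0 CPM. Endothelial Kdr was not among the high genes and was the lowest of all 12 lungs in mouse 3.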
